A study of Mus musculus with 23 samples.

Results

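Of 8683 genes measured on the arrays, 7 that encode proteins of the interstitial and matricellular matrix are described here: Thbs1, Ccn2, Lox, Postn, Col8a1, Fbln1 and Sparc. They were picked by symbol, and all 7 were measured, on 10 probes that carry no other symbol (2 each for Thbs1, Lox and Col8a1). The choice was made with their group values in earlier results of these data known, so their values and differences are given as a description, with no test. The samples were A404 cells, which are a single clone of the mouse embryonal carcinoma line P19 that can be differentiated towards smooth muscle. As background, puromycin resistance in A404 comes from a transgene under the Acta2 promoter (Acta2 encodes the alpha-actin of smooth muscle), so that puromycin selects cells in which this promoter is active. Control arrays (n = 6) held RNA of undifferentiated cells harvested near confluence. RA48 (n = 5) and RA96 (n = 6) cells started at about 30% confluence and received 1 µmol/L all-trans retinoic acid for 48 h or 96 h. Puromycin cells (n = 6) had 96 h of the same retinoic acid followed by 48 h of puromycin. Each replicate pooled 5 to 6 plates. Cell RNA was labelled red, and each array also held the same green-labelled pool of RNA from whole mouse embryos of day 17.5. Each value is given as the log2 of the cell signal over the embryo signal, so 0 means equal signal in both, and 1 unit is a factor of 2. The deposited ratios were read as log10 and converted. Ratios of different genes are not levels that can be ranked against each other, because each is set against its own amount in the embryo. In such bulk RNA a lower ratio may mean fewer cells that use a gene or less RNA per cell, and these cannot be told apart.

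Arrays of each group split into 2 sets, unnamed in the labels, by the sign of component 1 of a principal component analysis after group means were removed (48.9% of the variance left). The first set held 11 arrays and the second 12. The replicate number in the labels marks the set on 22 of the 23 arrays: replicates 1 to 3 were in the first set and 4 to 6 in the second, except that RA96 replicate 2 was in the second. The sets held, first and second, 3 and 3 arrays of Control, 3 and 2 of RA48, 2 and 4 of RA96 and 3 and 3 of Puromycin. Averaged over groups, the second set exceeded the first by 1.30 for Sparc and 1.16 for Postn, so values within each set are given beside the pooled ones. As the sets were drawn from the same data, p-values of fits within a set or with the set as a block are too small. A further fit, with a random block of group with set, called fewer rows than the main fit in every comparison. How the choice of sets shifts the p-values of that further fit was not tested. The labels were checked against markers. Acta2 had mean log2 ratios of -4.90 ± 0.65 in Control, -0.34 ± 0.14 in RA48, 1.87 ± 0.13 in RA96 and 2.40 ± 0.26 in Puromycin (SD). Sox2, a pluripotency factor, had 5.09 ± 1.56, 2.87 ± 0.32, 0.63 ± 0.52 and -0.60 ± 0.55 in the same order, and Nanog, another such factor, 0.70 ± 0.37, -0.02 ± 0.40, -0.46 ± 0.19 and -0.45 ± 0.16. Utf1, on the same list, had 3.25 ± 0.38, -0.24 ± 0.13, -0.64 ± 0.04 and -0.57 ± 0.12, but Zfp42, the remaining measured pluripotency marker, had overlapping values, at 1.19 ± 0.59, 1.32 ± 0.51, 1.16 ± 0.19 and 1.10 ± 0.25. Cnn1, the smooth muscle calponin gene, had -0.83 ± 0.46, 0.14 ± 0.28, 0.65 ± 0.36 and 0.34 ± 0.21. Myh11, the late smooth muscle myosin, stayed within its spread, with means from -1.14 ± 1.11 in Control to -0.77 ± 0.98 in RA96. Of the remaining measured smooth muscle markers, Smtn had -1.46 ± 0.17 in Control and -0.41 ± 0.28 in Puromycin. Des had -3.47 ± 0.43 and -2.69 ± 0.50, below the embryo pool in both.

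The extracellular matrix of connective tissue and vessel walls combines fibrils that bear load with proteins that instruct cells. Matricellular proteins such as thrombospondin 1, CCN2, periostin and SPARC bind collagens, growth factors and integrins and are made in abundance where tissue is remodelled. Collagens and fibulins build the scaffold, and lysyl oxidase cross-links its collagen and elastin. Cells that turn into smooth muscle make both a contractile apparatus and such a matrix, and TGF-beta and mechanical tension, acting through SMAD, TEAD and serum response factors, are known inducers of several of these genes.

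Promoter windows of 250 bases before and 50 bases from the transcription start on are shown for the genes that RefSeq's table (build GRCm38.p6) matched, to set genes that were higher in Puromycin than in Control beside Fbln1, which was not. Windows of 1 chromosome were left out of the search. Among the rest, the table matched Postn, Col8a1, Fbln1 and Sparc, and Thbs1, Ccn2 and Lox were not matched. A gene without a match here may therefore still have a window on the chromosome left out. Where it lists 2 starts (Postn and Fbln1), the downstream one is printed. Capitals mark the TATA box letters TATAAA, the GC box letters GGGCGG and the SMAD motif CAGACA, on either strand.
Postn, chr3:54360857-54361156, plus strand: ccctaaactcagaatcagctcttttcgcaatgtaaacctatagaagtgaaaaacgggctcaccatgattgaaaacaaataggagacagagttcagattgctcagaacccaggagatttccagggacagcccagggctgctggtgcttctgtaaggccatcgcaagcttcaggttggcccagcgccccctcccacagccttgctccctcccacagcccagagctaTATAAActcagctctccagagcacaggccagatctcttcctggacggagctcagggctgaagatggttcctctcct
Col8a1, chr16:57754688-57754987, minus strand: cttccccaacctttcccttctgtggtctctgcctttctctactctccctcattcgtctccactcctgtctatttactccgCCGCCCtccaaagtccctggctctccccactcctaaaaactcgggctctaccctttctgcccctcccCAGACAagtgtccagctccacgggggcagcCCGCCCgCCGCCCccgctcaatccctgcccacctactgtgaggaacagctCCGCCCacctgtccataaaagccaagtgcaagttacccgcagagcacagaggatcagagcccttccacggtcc
Fbln1, chr15:85205758-85206057, plus strand: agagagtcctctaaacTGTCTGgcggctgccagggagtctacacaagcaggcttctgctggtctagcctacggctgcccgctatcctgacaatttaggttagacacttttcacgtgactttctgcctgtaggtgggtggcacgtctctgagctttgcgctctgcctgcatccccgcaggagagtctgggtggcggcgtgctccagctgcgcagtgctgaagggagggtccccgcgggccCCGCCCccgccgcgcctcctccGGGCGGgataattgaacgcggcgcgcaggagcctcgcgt
Sparc, chr11:55420031-55420330, minus strand: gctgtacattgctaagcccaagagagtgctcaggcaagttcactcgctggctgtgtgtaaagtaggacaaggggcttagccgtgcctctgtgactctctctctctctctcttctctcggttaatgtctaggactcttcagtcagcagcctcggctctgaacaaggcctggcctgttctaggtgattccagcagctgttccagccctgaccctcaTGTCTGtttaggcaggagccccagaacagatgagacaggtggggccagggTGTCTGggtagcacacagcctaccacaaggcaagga
The Postn window holds TATAAA at bases -26 to -21 before the start, letters that 13.6% of all 32851 windows hold on either strand. The Col8a1 window has 4 GC boxes, all on the strand opposite to the one printed, so that the letters above read CCGCCC, at -170 to -165, -73 to -68, -66 to -61 and -23 to -18, and the Fbln1 window has 2, at -11 to -6 and 12 to 17. GC boxes were found in 35.7% of all windows. The SMAD motif stands once in the Col8a1 window (-103 to -98), once in that of Fbln1 (-234 to -229) and at -36 to -31 and 15 to 20 in that of Sparc, against 21% of all windows with at least 1 match. None of these matches overlaps another. In these 4 windows the search on both strands returned no TEAD motif GGAATG (14.7% of all windows), no AP-1 motif TGANTCA (7.81%), no CArG box (1.63%) and no retinoic acid element made of a direct repeat of AGGTCA with 5 bases between (0.00913%). A match or its lack describes these letters in these windows and says nothing about binding.

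Thbs1, which encodes thrombospondin 1, a secreted trimer that activates latent TGF-beta, was higher at every stage. Its log2 ratios ran from -2.47 to -1.91 in Control (median -2.07), and in RA48 were 0.69, 0.68, 0.96, 0.79 and 0.80. They ran from 1.66 to 2.30 in RA96 (median 2.05) and from 2.62 to 3.56 in Puromycin (median 3.08). No group overlapped another, with less Thbs1 signal than the embryo pool in Control and more in the other 3 groups. The mean was 2.88 ± 0.16 (SE) higher in RA48 than in Control, a 7.36-fold difference, 1.23 ± 0.16 higher in RA96 than in RA48, and 1.06 ± 0.16 higher in Puromycin than in RA96. The last of these steps was 0.48 within the first array set and 1.54 within the second. In total Puromycin exceeded Control by 5.17 ± 0.16, a 36-fold difference, which lay within 1 SE of that of Ccn2 (5.03 ± 0.17). Its pair of probes gave 4.85 and 5.49 for that total and had a Pearson correlation of 1.00 over the 23 arrays.

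Ccn2, also known as connective tissue growth factor, encodes a secreted protein that is a classic target of TGF-beta and of TEAD factors. Its log2 ratios ran from -0.78 to -0.39 in Control (median -0.55), and in RA48 were 2.34, 2.38, 2.44, 2.48 and 2.57. RA96 arrays ranged from 3.73 to 4.32 (median 4.14) and Puromycin arrays from 3.98 to 5.07 (median 4.42). Only RA96 and Puromycin overlapped. RA48 exceeded Control by 3.01 ± 0.17 (8.03-fold, and 3.01 and 3.03 in the array sets taken singly), and RA96 exceeded RA48 by 1.62 ± 0.17. For Puromycin over RA96 the difference was 0.41 ± 0.17, and its sign depended on the set, with -0.19 within the first and 0.93 within the second. The 3 first-set Puromycin arrays had a mean of 4.01 and the 3 second-set ones 4.92, whereas the same sets had 4.20 and 3.99 in RA96. With a mean of 4.47 ± 0.50 (SD, n = 6), the Puromycin cells gave 22.1 times the signal of the embryo pool.

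Postn encodes periostin, which binds collagen and takes part in its fibril assembly. Control arrays were spread widely, from -7.24 to -4.58 (median -5.51), and RA48 arrays had -4.43, -4.50, -4.33, -4.06 and -4.20. In RA96 the range was -1.65 to -1.06 (median -1.33), and in Puromycin -2.28 to -0.09 (median -1.23). RA96 thus stood clear of both earlier stages, and Puromycin lay on either side of RA96. The step with the largest difference was RA96 over RA48, 2.99 ± 0.47 (7.93-fold), and the sets gave 2.87 (first) and 2.93 (second). RA48 exceeded Control by 1.39 ± 0.47, but by 2.25 within the first and 0.60 within the second set. Puromycin differed from RA96 by 0.12 ± 0.45, but the first set gave -0.68 and the second 1.03, so the pooled value averages differences of opposite sign. The gap between sets was 2.07 among Puromycin arrays (means of -2.24 and -0.17) and 1.95 among Control arrays. Without intensities it cannot be judged whether the lowest ratios, in Control, lay above background.

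Sparc encodes SPARC, or osteonectin, a collagen-binding matricellular glycoprotein. It had -3.61 to -1.42 in Control (median -2.27), -1.97, -1.96, -1.84, -0.73 and -0.75 in RA48, -1.46 to 0.05 in RA96 (median -0.25) and -0.99 to 0.03 in Puromycin (median -0.53). Neighbouring stages overlapped throughout, and Puromycin and Control alone were apart, by 1.86 ± 0.40 (3.63-fold). This overlap went with the array sets, since second-set arrays were higher in every group, by 0.90 to 1.81. Within a set the order was Control, RA48, RA96 and Puromycin from low to high, with means of -3.28, -1.92, -1.46 and -0.97 in the first set and -1.47, -0.74, -0.15 and -0.06 in the second. RA48 exceeded Control by 1.35 and 0.73 within the sets, RA96 exceeded RA48 by 0.47 and 0.59, and Puromycin exceeded RA96 by 0.49 and 0.08. The pooled difference of RA96 over RA48, 0.87 ± 0.42, lay above both within-set values; 3 of 5 RA48 arrays were in the first set and 4 of 6 RA96 arrays in the second.

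Col8a1 encodes a chain of collagen VIII, a short-chain collagen that forms networks in the vessel wall. Control arrays ranged from -1.91 to -1.31 (median -1.50), and RA48 arrays had 0.20, 0.22, 0.36, -0.90 and -1.16. RA96 arrays ranged from 1.37 to 2.33 (median 1.75) and Puromycin arrays from 2.66 to 3.07 (median 2.94). With the probes averaged no group overlapped its neighbour, although at 48 h the 3 arrays of the first set stood above the embryo level and the 2 of the second set below it. On a single probe Control (-1.48 to -1.10) and RA48 (-1.41 to 0.33) overlapped, while the other probe kept them apart. RA48 exceeded Control by 1.32 ± 0.23 over all arrays, with 1.93 in the first set alone and 0.45 in the second. RA96 exceeded RA48 by 2.08 ± 0.23, and Puromycin exceeded RA96 by 1.10 ± 0.22 (0.59 and 1.39 within the first and second set). The total, Puromycin over Control, was 4.50 ± 0.22 (22.6-fold), with 4.50 and 4.49 within the sets. Its probes gave 3.79 and 5.20 for that total, so its size rests on the probe.

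Lox encodes lysyl oxidase, the copper enzyme that cross-links collagen and elastin. Its log2 ratios ran from -5.77 to -4.27 in Control (median -4.53), and in RA48 were -4.53, -4.45, -4.32, -3.63 and -3.91. They ran from -3.57 to -2.82 in RA96 (median -3.12) and from -1.29 to -1.04 in Puromycin (median -1.21). Control and RA48 overlapped, and with the probes averaged every later stage was clear of the one before. On a single probe, however, RA48 (-4.31 to -3.30) and RA96 (-3.57 to -2.94) overlapped, while the other probe kept them apart. Unlike in the other 6 genes, the step with the largest difference was the last, Puromycin over RA96, at 1.99 ± 0.21 (3.96-fold), and the sets gave 1.65 (first) and 2.20 (second). RA48 exceeded Control by 0.64 ± 0.23, which became 0.23 after quantile normalization of the arrays, and RA96 exceeded RA48 by 1.00 ± 0.23 (1.51 and 0.48 within the sets). Even in Puromycin, after a total difference of 3.62 ± 0.21 over Control, the cells held 0.44 times the signal of the embryo pool. The 2 Lox probes gave 3.20 and 4.04 for that total. As for Postn, it cannot be judged without intensities whether the lowest ratios, in Control and RA48, lay above background.

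Fbln1 encodes fibulin 1, a calcium-binding glycoprotein of elastic fibres and basement membranes, and it did not share the pattern of the other 6. It had -1.19 to -0.68 in Control (median -0.91), -0.37, -0.33, -0.45, 0.02 and 0.07 in RA48, -1.40 to -0.41 in RA96 (median -0.69) and -1.33 to -0.66 in Puromycin (median -1.0). RA48 arrays alone stood apart from Control, by 0.67 ± 0.18 (0.63 and 0.81 within the sets). RA96 was lower than RA48 by -0.60 ± 0.18, with -0.95 and -0.60 within the first and second set, although the groups overlapped when sets were pooled. Puromycin differed from Control by -0.11 ± 0.17 and RA96 from Control by 0.07 ± 0.17, and these groups overlapped. The second of these values averages opposite signs, -0.33 within the first set, where both RA96 arrays lay below all Control arrays, and 0.21 within the second. Second-set arrays were higher in all groups, by 0.25 to 0.78.

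**Figure D1:**
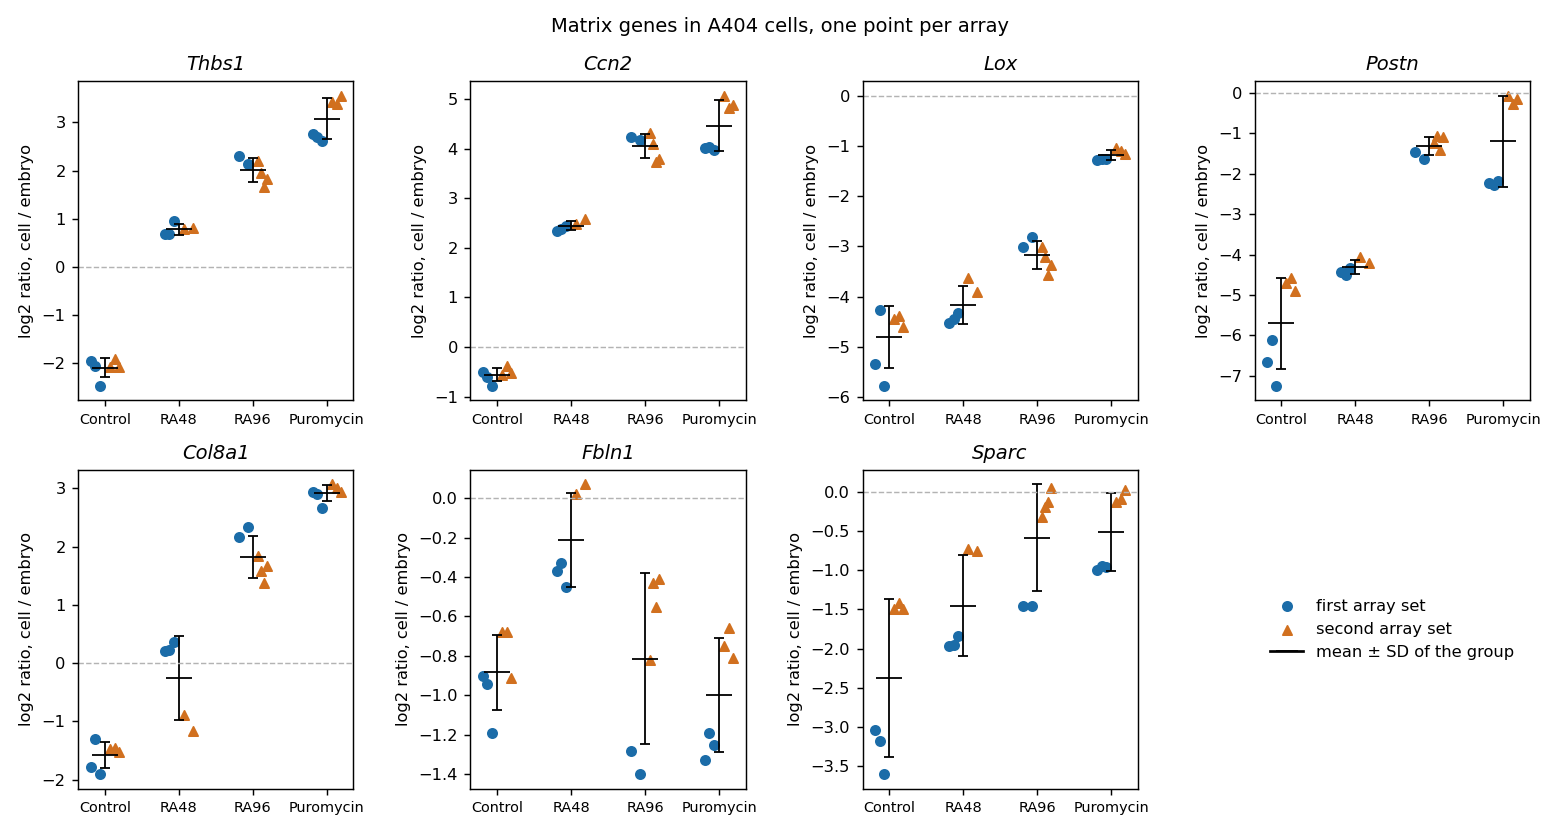
Log2 ratio of cell over embryo RNA (vertical axis) of each gene on each of the 23 arrays, by group, with circles for the first and triangles for the second array set and bars for the group mean ± SD. With probes of a gene averaged, Thbs1 and Col8a1 climb with no overlap between groups, Lox climbs most at the last stage, Sparc is split by array set in every group, and Fbln1 is highest in RA48.

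For the 6 genes other than Fbln1, the part of the total log2 difference, Puromycin minus Control, that was already present at 48 h set early genes beside later ones. It was 59.8% for Ccn2 (64.9% in the first array set and 55.9% in the second) and 55.7% for Thbs1 (60.5% and 51.5%). For Sparc it was 49.7% (58.5% and 52%), and for Lox 17.5% (18.1% and 20.9%). These 4 genes gave similar parts in both sets. Postn had 31% when pooled, but 50.7% within the first and 13.1% within the second set, and Col8a1 had 29.4%, with 42.8% and 10.1%, so their place in this order at 48 h is not settled. At 96 h the part was 91.9% for Ccn2 (104% within the first and 82.8% within the second set), 97.4% for Postn (115% and 77.3%) and 96.3% for Sparc (78.8% and 94%, both below the pooled value). It was 79.5% for Thbs1 (90.2% and 71.8%), 75.6% for Col8a1 (86.9% and 69%) and 45.1% for Lox. The order of the first 5 of these genes depended on the set. Lox had the lowest part at 96 h within each set as well (57.2% and 35%). Whether the low Control ratios of Lox and Postn, which enter these parts, lay above background cannot be judged.

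**Figure D2:**
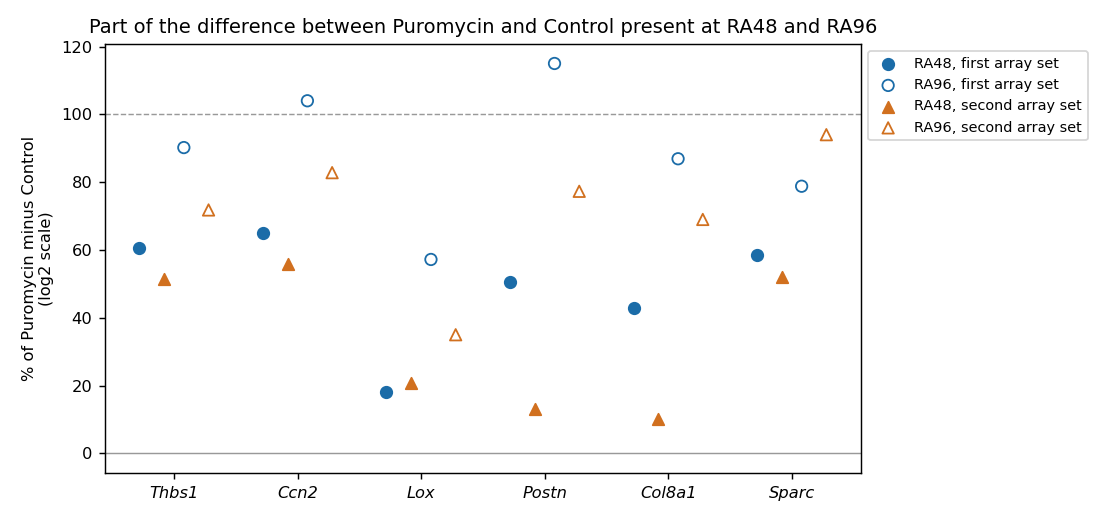
Percent of the log2 difference between Puromycin and Control (vertical axis) that was present at RA48 (filled) and RA96 (open), for 6 genes and within each array set. Lox has the lowest parts at RA96 (57.2% and 35%), while Postn and Col8a1 differ at RA48 between the sets.

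Read as comparisons, 6 of the 7 genes had Puromycin arrays all above the Control arrays, and 13.8% of all 17863 rows on the arrays did so. This count, the other counts of the 7 below and their medians follow from how the genes were chosen and carry no weight of their own. The corresponding counts were 5 genes for RA48 over Control (9.35% of all rows), 5 for RA96 over RA48 (4.81%), 3 for Puromycin over RA96 (2.84%; Thbs1, Lox and Col8a1) and 5 for RA96 over Control (12.3%). For these counts the probes of a gene were averaged. Taken singly, a probe of Lox overlapped in RA96 over RA48 and a probe of Col8a1 in RA48 over Control. Rows include probes with no gene name. Of the 8683 genes alone, 1573 stood higher without overlap in Puromycin versus Control and 1378 in RA96 versus Control. For RA48 versus Control, RA96 versus RA48 and Puromycin versus RA96 they numbered 1269, 535 and 352. No gene of the 7 had all arrays below those of the other group, as 8.79%, 5.49%, 1.76%, 13.7% and 14.5% of all rows did for RA48 versus Control, RA96 versus RA48, Puromycin versus RA96, RA96 versus Control and Puromycin versus Control. Among the 8683 genes 984, 656, 224, 1415 and 1487 did so, in the same order. The median difference of the 7 was 1.32, 1.23, 0.41, 3.40 and 4.50 for RA48 over Control, RA96 over RA48, Puromycin over RA96, RA96 over Control and Puromycin over Control, beside medians of -0.06, -0.02, -0.01, -0.08 and -0.09 over all rows. Several of these comparisons share arrays, those of Control above all, and are thus not independent of each other.

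**Figure D3:**
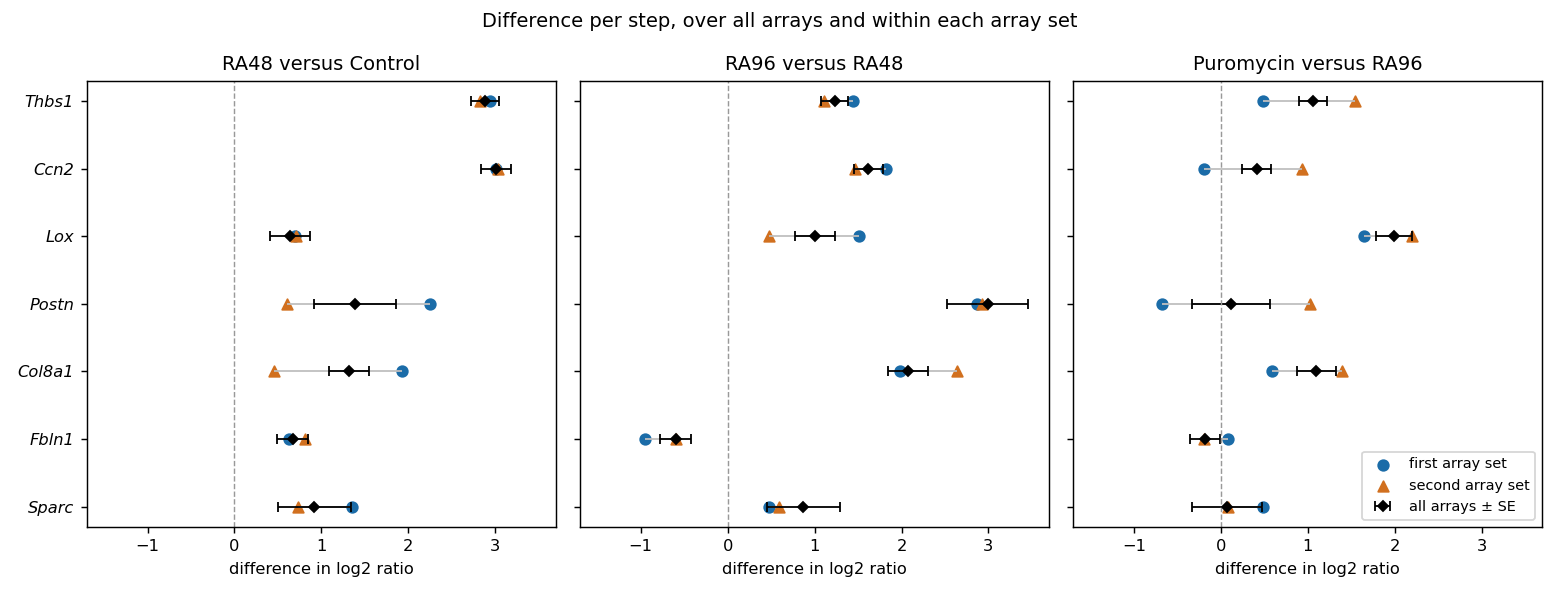
Difference in log2 ratio for each step (horizontal axis), over all arrays with its SE (diamonds) and within the first (circles) and second (triangles) array set. The sets lie close together for Thbs1, Ccn2 and Lox in RA48 versus Control and on opposite sides of 0 for Ccn2 (-0.19 and 0.93), Postn (-0.68 and 1.03) and Fbln1 (0.08 and -0.19) in Puromycin versus RA96.

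To see what surrounded these genes, 144 other genes were listed by role, of which 92 were measured. The lists, too, were drawn up with earlier results of these data known. Their counts beside the background are therefore a description and carry no independent weight. The roles were other matricellular proteins, interstitial collagens with fibronectin, enzymes that process collagen, elastic fibre proteins, proteoglycans, matrix receptors and upstream regulators. These genes were tested with limma over all 23 arrays and called at an adjusted p under 0.05 (Benjamini-Hochberg over 17863 rows). The labels do not say whether replicates were separate cultures, so the p-values cover only the scatter among the arrays at hand, which may be technical.

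RA48 versus Control asked what differed after the first 48 h of retinoic acid, with cell density differing too, so that treatment and density cannot be told apart. Of the 92 genes 36 rose and 4 fell, against a background of 26% of all rows called (11.9% higher and 14.1% lower), and the median was 0.31. Rows include probes with no gene name, and over the 8683 genes alone the shares were 18% higher and 16.4% lower. Tgfb2, a TGF-beta ligand, rose by 1.90 ± 0.16 and Tead1, a DNA-binding partner of the coactivator YAP, by 1.01 ± 0.09, among 10 regulators of 17 that rose. Tgfb3, a related ligand, was the regulator that fell (-0.84 ± 0.11). Among 19 receptors 8 rose, led by the integrin chains Itgb1 (1.65 ± 0.28) and Itga9 (1.40 ± 0.23), and Itga6 (-0.62 ± 0.13) and Itgb5 (-0.54 ± 0.16) fell. Of 18 collagen processing genes 9 rose, with Serpinh1, a collagen chaperone (1.46 ± 0.29), and Loxl2, a relative of Lox (1.39 ± 0.25), in front, while Pcolce2, an enhancer of procollagen cleavage, fell (-1.11 ± 0.14). Of 13 collagens and fibronectin 2 rose, Fn1, the fibronectin gene (2.40 ± 0.37), and Col5a2 (0.93 ± 0.23), and 8 did with the array set as a block. With that block 2156 of the 8683 genes were called higher. Dcn, the decorin gene (2.05 ± 0.37), was the 1 of 8 proteoglycans that rose (3 with that block). The elastic fibre list had 3 of 6 rise, with Ltbp1, which holds latent TGF-beta in the matrix (1.34 ± 0.09), and Hmcn1, the hemicentin gene (0.94 ± 0.17), ahead. Of 11 other matricellular genes 3 rose, with Smoc2, a calcium-binding relative of SPARC (1.72 ± 0.29), and Thbs2, a second thrombospondin (0.77 ± 0.26), in front. The highest adjusted p among the genes named was 0.0307 (limma), that of Thbs2, whose call was lost without Control replicate 1 or 3 or RA48 replicate 4 or 5 (adjusted p from 0.0647 to 0.0864). When arrays of 1 group and set were treated as repeats through a random block, 17 of the 40 calls were kept, and Thbs2, Col5a2, Hmcn1, Itga9, Itga6 and Itgb5 were not called (adjusted p from 0.0683 to 0.229).

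RA96 versus RA48 asked what differed after a further 48 h of retinoic acid, which cannot be told apart from time in culture. Of the 92 genes 28 rose and 8 fell (background 19.8% of rows, 10.4% higher and 9.42% lower, and 10.8% and 11.6% of genes), with a median of 0.31. Tgfb2 rose by another 2.37 ± 0.16, Tgfbr2, the type II TGF-beta receptor, by 1.04 ± 0.20, and Ltbp1 by 1.31 ± 0.09. Tead2 (-0.60 ± 0.13) and Tgfbr3, a TGF-beta co-receptor (-0.47 ± 0.14), were among 3 regulators that fell. Pcolce, another procollagen cleavage enhancer (1.86 ± 0.21), and Plod2, a lysyl hydroxylase that prepares collagen for cross-linking (1.17 ± 0.21), led 6 risers among the processing genes, of which Loxl3 (-0.54 ± 0.16) and Adamts14, a procollagen protease (-0.31 ± 0.08), fell. In the scaffold lists Col5a2 (1.26 ± 0.23), Col1a1 (1.03 ± 0.29), Hmcn1 (1.47 ± 0.17), Dcn (1.45 ± 0.37) and Vcan, the versican gene (0.53 ± 0.18), rose. Tnc, the tenascin C gene (1.62 ± 0.36), and Tgfbi (1.10 ± 0.25), a relative of Postn, rose most among matricellular genes, and Spock2 fell (-0.51 ± 0.11). Itgb1 (1.42 ± 0.28) and Itgav (1.17 ± 0.18) led the receptors, and Itgb5 (-0.62 ± 0.16) and Itga2 (-0.52 ± 0.14) fell. The highest limma adjusted p among those named was 0.0402 (Vcan). Pooled differences here can include part of the gap between sets, since RA48 and RA96 were split unevenly. All 36 calls kept their sign within each set. Tnc had 1.03 and 1.57 within the first and second set and Itgb1 1.27 and 1.18, all below the pooled values, whereas Tgfb2 had 2.30 and 2.68. Tgfbr3 (-0.80 and -0.11), Itga2 (-0.78 and -0.15) and Loxl3 (-0.66 and -0.18) fell mostly in the first set, and Spock2 in both (-0.55 and -0.58). Leaving out 1 RA48 array of the first set ended the calls of Loxl3, Vcan and Tgfbr3 (replicate 1, 2 or 3) and Col1a1 (replicate 2 or 3), with adjusted p from 0.0534 to 0.123, and that of Vcan also ended without RA96 replicate 2, 4, 5 or 6 (0.0516 to 0.0879). Under the random block 8 of the 36 calls were kept, and of the genes named Pcolce, Plod2, Hmcn1, Ltbp1, Itgav and Tgfb2 were called (the others had adjusted p from 0.0857 to 0.716).

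Puromycin versus RA96 asked what differed after selection. Selection cannot be told apart from 48 h more in culture, the end of retinoic acid or other effects of puromycin. Of the 92 matrix genes 7 rose and 4 fell, against 5.27% of all rows (3.17% higher and 2.1% lower, and 4.7% and 3.12% of genes), and the median was -0.02. Ccn4, a relative of Ccn2, rose by 1.28 ± 0.12, P4hb, a subunit of prolyl hydroxylase (0.83 ± 0.12), and Pcolce2 (0.79 ± 0.13) rose among the collagen processing genes, and Cd44, the hyaluronan receptor gene, rose by 0.60 ± 0.13. Tgfb3 (0.56 ± 0.10) and Tgfb1 (0.45 ± 0.08) rose, and Tgfbr3 fell (-0.54 ± 0.14). Ltbp1 (-0.34 ± 0.09), Itga9 (-0.86 ± 0.22) and Itga3 (-0.46 ± 0.09) fell. None of the 13 interstitial collagens and fibronectin was called by limma (0 at an unadjusted p under 0.05), nor was any of the 8 proteoglycans (1 at an unadjusted p under 0.05), counts that lie near the background share. With the array set as a block limma called 1 of the 13 higher, and 1 proteoglycan higher and 2 lower, and within the second set 4 of the 13 were higher. Of all 8683 genes, 871 were called higher and 647 lower with that block, and 591 higher within the second set. The highest adjusted p of those named was 0.0215 (Ltbp1). The calls of Ltbp1, Itga9 and Tgfbr3 were each lost without 1 of 3 or 4 arrays (Ltbp1 without RA96 replicate 4 or 6 or Puromycin replicate 3, Itga9 without RA96 replicate 4 or 6 or Puromycin replicate 2 or 3, Tgfbr3 without Puromycin replicate 1, 2 or 3), with adjusted p from 0.0545 to 0.0649. Under the random block Ccn4 alone was called (0.00846), and the others had adjusted p from 0.393 to 1.

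Puromycin versus Control spans the whole protocol, and 53 of the 92 genes rose and 9 fell (background 46.3% of rows, 19.8% higher and 26.4% lower, and 24.6% and 28.6% of genes), with a median of 0.66. Tgfb2 rose by 4.64 ± 0.15, and Snai1, a repressor of epithelial genes, by 1.59 ± 0.23. Itgb1 (3.15 ± 0.26) and Cd44 (2.81 ± 0.13) led 13 receptors of 19 that rose, and Itga6 (-1.05 ± 0.12) and Itgb5 (-1.01 ± 0.15) fell. Of 18 collagen processing genes 14 rose, with Loxl2 (2.74 ± 0.24) and Serpinh1 (2.31 ± 0.28) in front, and Adamts14 fell (-0.48 ± 0.08). Tnc (3.25 ± 0.35) and Ccn4 (2.35 ± 0.12) led 6 matricellular genes of 11, while Spock2 (-0.84 ± 0.10) and Smoc1 (-0.82 ± 0.19) fell. Among collagens and fibronectin 5 of 13 rose, led by Fn1 (2.84 ± 0.35; 1.64 and 4.04 within the first and second set) and Col5a2 (2.62 ± 0.22), and Col5a3 fell (-0.40 ± 0.09). Hmcn1 (2.44 ± 0.16), Ltbp1 (2.31 ± 0.09), Dcn (2.80 ± 0.35) and Vcan (0.86 ± 0.17) rose in the remaining lists, where Ncan, a proteoglycan gene of nervous tissue, and Tgfbr3, on the regulator list, fell (-0.50 ± 0.10 and -0.57 ± 0.14). The highest limma adjusted p among them was 0.00146 (Tgfbr3). The random block kept 39 of 62 calls, without Smoc1, Col5a3 and Ncan (adjusted p of 0.0855, 0.134 and 0.105).

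RA96 versus Control gave nearly the same count, with 54 rising and 10 falling (46.1% of all rows called, 20.1% higher and 26.1% lower, and 23.9% and 27.6% of genes) and a median of 0.68. Tgfb2 (4.27 ± 0.15), Dcn (3.50 ± 0.35), Itgb1 (3.06 ± 0.26), Fn1 (2.68 ± 0.35), Ltbp1 (2.65 ± 0.09), Tnc (2.45 ± 0.35), Hmcn1 (2.41 ± 0.16) and Cd44 (2.21 ± 0.13) were among the largest rises, and Col5a2 (2.19 ± 0.22), Loxl2 and Serpinh1 (2.14 each, ± 0.24 and ± 0.28), Smoc2 (1.86 ± 0.28), Wwtr1, which encodes the coactivator TAZ (1.53 ± 0.24), and Vcan (0.84 ± 0.17) followed. The rise of Fn1 depended on the array set, with 1.66 within the first and 3.53 within the second. Itgb5 (-1.16 ± 0.15), Pcolce2 (-0.83 ± 0.13), Itga6 (-0.81 ± 0.12) and Spock2 (-0.75 ± 0.10) fell. Smaller falls were those of Smoc1 (-0.57 ± 0.19), Adamts14 (-0.50 ± 0.08), Ncan (-0.44 ± 0.10), Col5a3 (-0.36 ± 0.09) and Tgfb3 (-0.29 ± 0.10, limma adjusted p = 0.0225, the highest of those named). The call of Tgfb3 was lost without Control replicate 1 or 2 or RA96 replicate 2 or 3 (adjusted p from 0.0505 to 0.0629), and its difference was -0.07 within the second set. The random block kept 39 of 64 calls, without Smoc1, Col5a3, Ncan and Tgfb3 (adjusted p from 0.14 to 0.305).

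**Figure D4:**
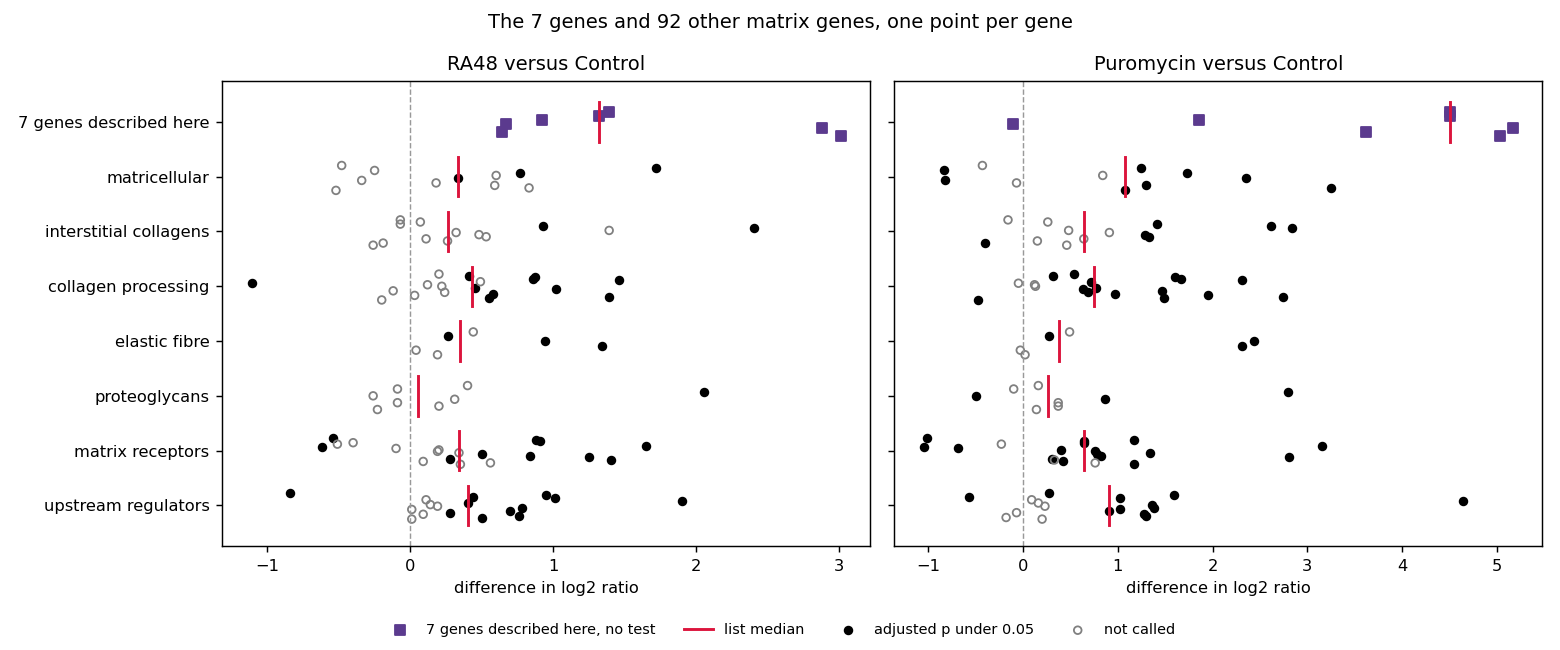
Difference in log2 ratio (horizontal axis) of the 7 genes (squares, no test) and of 92 other matrix genes by role, filled where limma's adjusted p was under 0.05, with list medians in red. In Puromycin versus Control the 7 genes have a median of 4.50 and the 92 others one of 0.66, a contrast that the choice of the 7 genes fixes.

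Some markers of other cell types moved with these genes, and their part in the values was not tested. For 3 measured of 6 listed fibroblast markers (Col1a1, Dcn and Prrx1, of which Col1a1 and Dcn also stand on the matrix lists) the mean log2 ratio per array ran from -4.28 to -3.19 in Control, -3.19 to -2.47 in RA48, -2.15 to -1.12 in RA96 and -2.24 to -0.86 in Puromycin. Prrx1, a mesenchymal transcription factor, had -1.60 ± 0.61 in Puromycin and -3.37 ± 0.35 in Control. The mean of 4 measured of 6 endoderm markers ran from -0.08 to 0.02 in Puromycin and from -1.05 to -0.79 in Control. Of these 4, Gata6 (2.13 ± 0.06 in Puromycin and -0.30 ± 0.34 in Control) and Sox17 (-0.26 ± 0.30 and -1.50 ± 0.20) were higher, whereas Gata4 (-0.73 ± 0.27 and -0.64 ± 0.27) and Foxa2 (-1.22 ± 0.10 and -1.30 ± 0.11) were not apart. The mean of 3 measured of 5 endothelial markers ran from -2.85 to -1.68 in Control, -1.45 to -1.23 in RA48, -1.33 to -0.98 in RA96 and -1.51 to -1.33 in Puromycin, with Puromycin overlapping RA48 and lying at or below RA96. The mean of 5 measured of 6 neural markers overlapped, from -1.71 to -0.81 in Puromycin and from -1.30 to -0.36 in Control, as did the 1 measured of 4 blood markers, Ptprc (-1.11 to -0.04 in Puromycin and -1.14 to -0.60 in Control).

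Over the 23 arrays, the gene profiles most like each of the 7 were found among 8373 named genes by Pearson correlation, as a description, since arrays share groups, sets and the embryo pool. Thbs1 was most like Anxa2, S100a6 and B2m, and Ccn2 most like Anxa1, B2m and Acta2 (0.99 for each). Lox was most like Ccn4 (0.99), Lmna and Clca3a1 (0.97 each). Postn was most like Cavin1 (0.98), Tmem176b and Mprip (0.97 each), and Col8a1 most like Dnajb4 (0.99), Arid5b and Col4a2 (0.98 each). For Sparc they were Tpm2 and Actg2 (0.98 each), genes of the contractile apparatus, and Nav1 (0.97). Such high values were common: 316 genes correlated with Thbs1 by over 0.9, 310 with Ccn2, 234 with Col8a1, 170 with Postn, 98 with Lox and 90 with Sparc. For Fbln1 only 4 genes did, the nearest 3 being Tubg1 (0.93), Ednrb (0.92) and Plxna2 (0.91). Among the 7 themselves, Thbs1 and Ccn2 had the highest correlation over all arrays (0.99, and 0.99 within each set), which Thbs1 and Sparc also reached within the first set and Postn and Col8a1 within the second, and Fbln1 had correlations from -0.34 (Col8a1) to 0.27 (Sparc) with the others.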

How the data were processed

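Expression was measured in 23 samples on 2-colour Agilent arrays without a dye swap. Per the labels, slides were read on a G2565AA scanner and Feature Extraction software of Agilent gave the values. The table the authors deposited holds a log ratio per probe and array; later normalization is not given in the sources used here. The base was read as log10 from the range of the deposited values, which were divided by 0.301 to give log2, and the direction from the dyes. Scale, centring and direction are not stated in the table, so folds rest on this reading. Array medians lay between -0.0775 and 0.0203.

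Of 21446 rows, 1166 without a gene and with at most 6 significant digits on every array were taken for control spots and dropped. By GEO's platform annotation, 11100 of the remaining 20280 probes had 1 symbol, 442 several and 8738 none. Probes of 1 symbol were averaged, giving 17863 rows with 8683 genes. Values were complete, and no filter on low values was used. Group means were fitted with limma 3.58.1 (R 4.3.3) and empirical Bayes moderation, with Benjamini-Hochberg adjustment over all rows. The number of arrays limits precision, and intensities were not analysed here. The fit was tested on simulated data with known changes. The simulated noise was independent between arrays, with no array sets, so that test cannot tell how the sets affect the calls.

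The members and gene lists were chosen with earlier results of these data known. Named beside the 7 genes are 5 markers, up to 2 called genes each way per list and comparison, and the 3 most correlated genes per member. Other markers named were chosen after their values were seen. Same-numbered arrays of different groups had correlated deviations over 0.1 in 30 of 33 pairs, and the 3 exceptions all involve RA96 replicate 2, the array whose set does not follow its number. Since not every pair passed, the numbers were not taken to pair samples, but they do track the array set. Other settings tried were median-centred and quantile-normalized arrays, unaveraged probes, fits of the compared groups alone, blocks for replicate number or array set, fits within a set, a random block of group with set (statmod 1.5.0), control-like rows kept, trended and robust variance, an adjusted p under 0.01, ratios read as log2, and leaving out each array. Scripts used Python 3.11.15, numpy 2.4.6, pandas 2.3.3 and matplotlib 3.10.9.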

Additional observations from a re-analysis of the deposited data

Results flagged for a closer look

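In 2 of 48 sets of arrays (12 genes in 4 groups) 1 array stood far from the others of its group by Dixon's criterion, which chance alone meets in about 1 group of 20. Thbs1 had -2.47 on Control replicate 3, with the other Control arrays from -2.09 to -1.91. Sox2 had 8.18 on Control replicate 5, with the others from 4.12 to 5.22.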

How the results depend on the processing

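Counts depended most on how the array sets were treated. For RA48 versus Control, 4642 rows were called, 7029 with the array set as a block and 1437 with group and set as a random block, and of the 92 other matrix genes 17 were called under that random block instead of 40. For RA96 versus RA48, 3540 rows were called, 5726 with a set block, 6697 and 2267 within the first and second set, 248 under the random block, 1596 at an adjusted p under 0.01, and 2227 to 4198 without 1 array, the low counts coming without RA48 replicate 1, 2 or 3 (2239, 2305 and 2227). The matrix genes called there numbered 36, 8 under the random block and 23 at the stricter threshold. For Puromycin versus RA96, 942 rows were called, 2281 with a set block, 1691 and 1638 within the sets, 17 under the random block and 437 at the stricter threshold. There 11 matrix genes were called, 22 with a set block, 23 within the second set, 1 under the random block and 7 at the stricter threshold. The random block gave 2783 rows and 39 matrix genes for RA96 versus Control (8239 and 64 otherwise) and 3100 and 39 for Puromycin versus Control (8263 and 62). With the replicate number as a block, which the labels do not say pairs samples, Puromycin versus RA96 gave 1784 rows and 18 matrix genes, and the other counts stayed within 1.5 times. Of the differences of the 7 genes, those of Puromycin versus RA96 changed sign most: Ccn2 (0.41) to -0.19 and Postn (0.12) to -0.68 within the first set, Fbln1 (-0.18) to 0.08 there, and Postn and Sparc (0.07) when 1 array was left out (-0.11 to 0.33 and -0.11 to 0.19; Postn without Puromycin replicate 4, 5 or 6, Sparc without these or RA96 replicate 1 or 3). Fbln1 in RA96 versus Control (0.07) turned to -0.01 with a set block, to -0.33 within the first set and -0.04 under the random block, and ran from -0.01 to 0.19 without 1 array. In Puromycin versus Control (-0.11) it had 0.02 within the second set. The cause of these shifts between sets was not tested. All other differences of the 7 genes kept their sign under the settings run, and read as log2 instead of log10 they would be 0.301 times as large.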

Other observations

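Within groups, that is after each group's mean was removed, the 7 genes varied together in a different way from across the stages. Over the 23 arrays, deviations of Thbs1 and Ccn2 correlated by 0.93, those of Fbln1 and Sparc by 0.82 and those of Postn and Sparc by 0.80. Deviations of Postn correlated by 0.71 with Ccn2, by 0.68 with Thbs1 and by 0.63 with Fbln1. Fbln1, whose stage pattern was unlike that of the other 6, thus varied between arrays of 1 group much as Sparc did, and less closely with Postn. Col8a1 deviated the other way from Fbln1 (-0.49) and Sparc (-0.38). These deviations follow the array sets in part: averaged over groups, the second set exceeded the first by 1.30 for Sparc, 1.16 for Postn and 0.49 for Fbln1 and was lower by -0.39 for Col8a1, beside a median size of 0.26 over all rows. For Sparc and Fbln1 the gap made up most of the deviation. Per group, first-set SDs were 0.01 to 0.30 for Sparc, beside gaps of 0.90 to 1.81. For Fbln1 they were 0.06 to 0.16, beside gaps of 0.25 to 0.78. For Thbs1 and Ccn2 the mean gap was 0.15 and 0.24, with 0.76 and 0.91 among Puromycin arrays and -0.31 and -0.22 among RA96 arrays. The correlations are descriptions of these arrays, which share sets and the embryo pool.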
